A study of Mus musculus with 18 samples.

Results

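The response of SRF-deleted hearts to phenylephrine was read by setting 3 SRFHKO hearts given phenylephrine (PE) against 3 SRFHKO hearts not given it. The 6 arrays, of 18 in the study, were taken by their sample titles alone, with no use of measured values. SRFHKO is the labels' name for the mutant mice, whose gene for serum response factor (SRF) is inactivated in the adult heart after tamoxifen. The labels do not say which promoter drives the recombinase. All mice of the study had 0.7 mg of tamoxifen on each of 3 days, so the groups compared share the deletion and the tamoxifen and differ by PE. PE was delivered at 80 mg/kg/day by Alzet osmotic minipump between days 10 and 25 after the first injection, and the hearts are those labelled day 25. Each array holds RNA of cardiac ventricular tissue from a male mouse of 10 weeks, with the strain given as CR7BL6. The titles call the 3 replicates of a group biological. The same comparison in control mice, which are littermates with the SRF-flex2neo allele given tamoxifen (3 hearts with and 3 without PE, day 25), is set beside it and shares no array with it.

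PE is an agonist of alpha-1 adrenergic receptors, which couple through Gq to phospholipase C, protein kinase C and calcium-dependent calcineurin signalling. Sustained stimulation enlarges cardiomyocytes and raises a set of fetal and stress genes, among them natriuretic peptides and the slow myosin heavy chain. SRF binds the CArG box of many of these genes, and of genes for actins and actin-binding proteins, so that a mutant heart meets the agonist without one of the factors through which the stimulus is known to act.

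Levels below are log2 of the scaled array signal plus 2, and a difference of 1 is a doubling on that scale. Differences carry standard errors (SE) from a limma model over the 18 arrays, with p values adjusted (Benjamini-Hochberg) across 12610 tested genes against a threshold of 0.05. "Rose" and "fell" are used only of genes past it. The 6 arrays were alike in brightness before scaling (trimmed means of 71.2 to 83.5 without and 75.9 to 85.4 with PE) and in profile (pairwise r across genes 0.956 to 0.970). Control arrays of day 25 were dimmer on average, with mean trimmed means of 57.3 without and 65.1 with PE. Arrays of day 8, in the fit but not compared, were brighter, at 131.5 in controls and 133.3 in SRFHKO hearts. What part brightness has in the differences between genotypes was not tested. Cardiac muscle was present by its markers: all 20 cardiomyocyte markers were measured, with Myh6, the adult alpha myosin heavy chain, at 13.23 to 13.53 in the 6 hearts. Atrial markers were present too and varied between hearts: 9 of 10 were measured, with the atrial myosin light chain Myl7 at 11.2 ± 0.90 without and 11.3 ± 0.996 with PE (SD, n = 3), and their median stood 0.20, 0.39 and -0.65 from the untreated mean without PE and 1.04, 0.27 and -0.56 with PE. How much atrium the samples hold was not tested. Of 18 skeletal muscle markers 7 passed the filter on low values. Of 10 erythroid markers 3 were measured, and most of the others had no probe set assigned to them alone. Srf itself stood at 7.48, 7.16 and 7.63 without and 7.36, 7.35 and 7.50 with PE, and at 7.66, 7.37 and 7.42 in untreated controls. These ranges overlap, whereas a second, dimmer Srf probe set was higher with PE by 0.61 ± 0.19, which was not called (limma adjusted p over all probe sets = 0.238). Where the array's Srf probes lie relative to the deleted part is not known from the files, so that they check nothing about the labels.

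PE changed few genes in SRFHKO hearts past the threshold. The 10 largest rises were, in order of size, Sprr1a, Postn, Col8a1, Bcr, Rcan1, Tgfb2, Uck2, Flnc, Thbs4 and Bcl2. They include matrix genes of activated fibroblasts, a TGF-beta ligand and a feedback inhibitor of calcineurin, Rcan1. The 10 largest falls were Fbp2, Lgi1, Dhrs7c, Gpat3, Agtr1a, Eci1, Dhrs11, Dusp1, Ccrl2 and Rmdn1. They include metabolic enzymes, the angiotensin receptor Agtr1a and the MAP kinase phosphatase Dusp1. In all, 37 of 12610 genes were called (0.293%), 23 of them higher (0.182%) and 14 lower (0.111%). Of these, 9 rose and 3 fell by at least 2-fold. The 3 hearts with PE did not overlap the 3 without it in any of the 37, against 2142 genes without overlap among all tested (17%). At an unadjusted p under 0.05, 713 genes were higher (5.65%) and 667 lower (5.29%), and the median difference over all genes was -0.01 (6192 higher, 6418 lower). The number called rested on single hearts: it was 7, 5 and 2 without SRFHKO replicate 1, 2 and 3, and 83, 1 and 31 without SRFHKO with PE replicate 1, 2 and 3. Sprr1a was called in each of these 6 omissions, Col8a1 in 5, and the other 35 lost their call in 3 or more. No called gene changed direction in any of them.

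**Figure D1:**
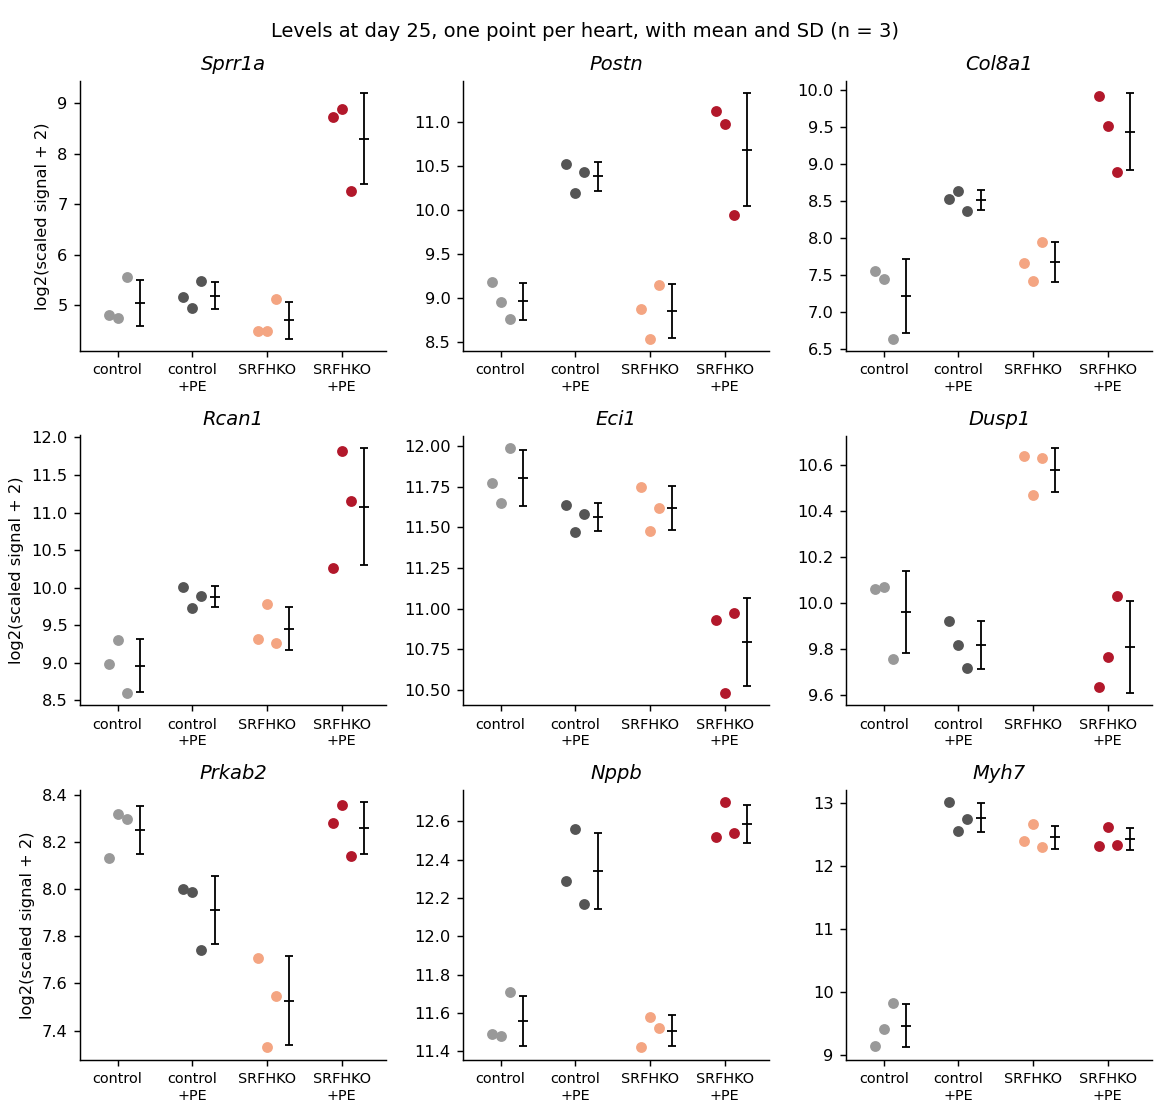
Levels of 9 genes in each heart of the 4 groups of day 25 (y axis, log2 of scaled signal plus 2; points are hearts, bars mean and SD of 3). Sprr1a was at 7.26 to 8.89 in SRFHKO hearts with PE and at 5.57 or below in the other 9 hearts, while Myh7 was above 12 in all SRFHKO hearts and in controls with PE.

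Sprr1a, which encodes a small proline-rich protein of the skin barrier that stressed cardiomyocytes also induce, had the largest change. It stood at 4.49, 4.50 and 5.12 in SRFHKO hearts without PE and at 8.74, 8.89 and 7.26 with PE. The groups were far apart, with the lowest heart with PE more than 2 units above the highest without it. The rise was 3.59 ± 0.36 (SE, n = 3 hearts a group), or 12.1-fold (limma adjusted p = 9.24e-05). Under 17 alternative settings it lay between 3.27 and 4.11 and kept its call in all of them, with a largest adjusted p of 0.0201 by limma.

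Promoter windows of some of the largest rises are printed here with the factor motifs near the start of each. Of the largest rises not printed, Tgfb2, Uck2, Flnc and Bcl2 have windows with a match, while the window of Bcr has no match. Neither does the upstream window of Rcan1. The windows are the 250 bases before the transcript start, from RefSeq (mouse GRCm38.p6), printed in the direction of the gene with matches to the motifs searched in capitals. For the genes called higher, 20 of 23 had a window (25 windows, since some genes have several starts), and for those called lower 10 of 14 (14 windows). The minus-strand window of Sprr1a is chr3:92485882-92486131 and holds a pair of TGANTCA matches, the AP-1 element, at -146 to -140 and -116 to -110 from the start.
Sprr1a: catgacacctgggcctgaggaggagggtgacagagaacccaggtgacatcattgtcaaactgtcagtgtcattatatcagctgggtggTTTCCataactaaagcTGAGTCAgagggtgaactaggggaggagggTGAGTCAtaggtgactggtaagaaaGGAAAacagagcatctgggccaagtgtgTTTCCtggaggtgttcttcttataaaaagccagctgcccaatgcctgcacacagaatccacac
The minus-strand window of Rcan1, for its downstream start, is chr16:92400079-92400328 and holds TGANTCA at -110 to -104 with 3 matches to GGAAA, the core of NFAT sites.
Rcan1: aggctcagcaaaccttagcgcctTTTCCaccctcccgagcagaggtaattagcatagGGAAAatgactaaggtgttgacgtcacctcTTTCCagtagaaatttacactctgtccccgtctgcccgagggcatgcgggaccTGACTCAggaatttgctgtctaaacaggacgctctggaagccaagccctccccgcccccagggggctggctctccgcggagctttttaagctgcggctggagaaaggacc
The minus-strand window of Thbs4 is chr13:92794819-92795068 and holds CATTCC, the core of the M-CAT element of TEAD factors, at -197 to -192 and again at -192 to -187.
Thbs4: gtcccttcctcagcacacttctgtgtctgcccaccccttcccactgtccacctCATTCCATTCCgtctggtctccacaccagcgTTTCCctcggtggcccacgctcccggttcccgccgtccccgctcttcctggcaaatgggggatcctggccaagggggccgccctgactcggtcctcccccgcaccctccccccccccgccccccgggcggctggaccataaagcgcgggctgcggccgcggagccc
A plus-strand window of Postn, chr3:54360857-54361106, for the second of its starts, and the minus-strand window of Col8a1, chr16:57754738-57754987, each hold a single GGAAA.
Postn: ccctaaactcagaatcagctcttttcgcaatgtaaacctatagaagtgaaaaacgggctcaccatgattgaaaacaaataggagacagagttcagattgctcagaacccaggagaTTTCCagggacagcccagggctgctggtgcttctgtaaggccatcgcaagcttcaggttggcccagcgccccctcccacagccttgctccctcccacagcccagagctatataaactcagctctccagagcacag
Col8a1: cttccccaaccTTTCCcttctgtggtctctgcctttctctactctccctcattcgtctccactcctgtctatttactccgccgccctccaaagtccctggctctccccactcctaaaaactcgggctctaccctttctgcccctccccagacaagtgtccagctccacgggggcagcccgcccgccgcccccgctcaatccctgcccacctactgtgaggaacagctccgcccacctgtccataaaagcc

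The share of windows with each motif was set beside that of all 32851 mouse windows of the same length. Each motif was searched on both strands, and no matches of different motifs overlapped. The CArG box, SRF's own element, was in 0 of 25 windows of genes that rose and 0 of 14 of genes that fell, against 1.47% of all windows. The AP-1 element TGANTCA was in 2 of 25 windows of rises (8%, Sprr1a and Rcan1) and 1 of 14 of falls (7.14%, Fbp2), against 6.75%. CATTCC was in 4 of 25 (16%) and 4 of 14 (28.6%), against 12.6%, but the 4 windows of falls belong to 2 genes, Art3 and Ccrl2, and the Ccrl2 pair overlaps and holds 1 site. The GATA motif AGATAA was in 0 of 25 and 3 of 14 (21.4%), against 9.99%, where the 3 windows again include the overlapping Ccrl2 pair with 1 site, beside Gstk1. Windows of 1 gene are thus not independent. GGAAA was in 13 of 25 (52%) and 10 of 14 (71.4%), against 55.6%, and AGGTCA, the half-site of nuclear receptors, in 3 of 25 (12%) and 2 of 14 (14.3%), against 14%. A match says only that these letters stand in the window.

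Several genes of the extracellular matrix rose, and most members of the matrix lists were higher with PE, few of them past the threshold. Postn, periostin, a matricellular protein that activated fibroblasts secrete, was at 8.88, 8.54 and 9.15 without PE and at 11.13, 10.98 and 9.95 with it. Replicate 3 with PE was the lowest of its group and still above all 3 untreated hearts. The rise was 1.83 ± 0.34 (SE; 3.55-fold, limma adjusted p = 0.0246). Col8a1, a chain of the short network-forming collagen VIII, stood at 7.66, 7.42 and 7.95 without and at 9.92, 9.51 and 8.89 with PE, with the same heart lowest. It rose by 1.76 ± 0.25 (3.40-fold, limma adjusted p = 0.00651). Thbs4, thrombospondin 4, was at 6.36, 6.47 and 6.60 and then at 7.79, 7.80 and 7.41, a rise of 1.19 ± 0.21 (limma adjusted p = 0.0219) with tight groups. Bgn, biglycan, a small proteoglycan that binds collagen, went from 10.08, 10.05 and 10.18 to 11.00, 11.11 and 10.63, a rise of 0.81 ± 0.16 (limma adjusted p = 0.0412). Col4a5, a collagen chain of the basement membrane, and the secreted protein Crispld2 lay outside the naming rule and are named after their values were seen. Col4a5 rose by 0.59 ± 0.12 and Crispld2 by 0.68 ± 0.13. A brighter Crispld2 probe set gave 0.47 ± 0.16 and a dimmer one 0.46 ± 0.16, neither called (limma adjusted p over all probe sets = 0.289 for each).

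The fixed matrix lists were read by counts and medians. Of 21 collagen genes all were measured and 20 were higher with PE, 10 of them at an unadjusted p under 0.05, with 1 called and a median difference of 0.56. Each heart showed this: the list's median stood 0.58, 0.60 and 0.54 above the untreated mean in the 3 hearts with PE, and 0.15, -0.23 and 0.06 from it in the untreated hearts. Of 33 matricellular and other matrix genes measured (37 in the list), 30 were higher, 15 at an unadjusted p under 0.05, 3 were called, and the median was 0.54. Both counts were the same under quantile and array-median scaling. The main fibrillar collagens had wide errors, which pool the spread of all groups in the fit. Col1a1 differed by 0.73 ± 0.54 (limma adjusted p = 0.677) and Col3a1 by 0.93 ± 0.44 (limma adjusted p = 0.449). In SRFHKO hearts without and with PE the SDs of Col1a1 were 0.63 and 0.50, and the groups overlapped. Those of Col3a1 were 0.30 and 0.31, and its groups did not overlap. In untreated controls of day 25 the SDs of Col1a1 and Col3a1 were 0.99 and 1.05. In the 2 control hearts of day 8, also in the fit, they were 1.86 and 1.10. Col5a2, of the smallest p in the list after Col8a1, went from 8.05, 7.59 and 8.24 to 9.55, 9.33 and 8.75, a difference of 1.25 ± 0.36 that was not called (limma adjusted p = 0.156). Cilp, a cartilage matrix protein that fibroblasts of stressed hearts make, just missed the threshold, at 1.74 ± 0.37 (limma adjusted p = 0.0538). Of 18 matrix proteases and inhibitors measured, 13 were higher and 0 were called, with Mmp2, a gelatinase, at 1.01 ± 0.27 (limma adjusted p = 0.123).

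Fibroblast markers, which share genes with the matrix lists, were in part higher. Of 13 activated fibroblast markers measured, 12 were higher with PE under all 3 scalings, with a median of 0.996 and 2 called, Postn and Thbs4, both matrix genes already described. Their summed signal ranged from 2769 to 4397 in untreated hearts and from 4181 to 6558 with PE. Of 18 general fibroblast markers 13 were higher and 0 were called by limma (at an unadjusted p under 0.05, 6 were higher and 1 lower), among them the collagens Col1a2 (0.90 ± 0.32) and Col3a1. Some other markers of the list lay near 0 or below. Pdgfra, a growth factor receptor of fibroblasts, was at 0.11 ± 0.13 and Dcn, decorin, at 0.03 ± 0.14. Tcf21, a fibroblast transcription factor, was at -0.31 ± 0.17 and Fbln1, fibulin 1, at -0.52 ± 0.16. The 13 higher markers also included Mfap5 (0.93 ± 0.28), Fstl1 (0.78 ± 0.26) and Vim, vimentin (0.29 ± 0.18). These single markers were chosen after their values were seen. The list had a summed signal of 15130 to 20090 and then 18580 to 23540. Cardiomyocyte markers summed to 143800 to 168000 without and 141900 to 148800 with PE. In ventricular tissue as a whole, more cells of a type and more RNA per cell cannot be told apart, and the part of cell numbers in the matrix rises was not tested. Removing SRFHKO replicate 1, 2 or 3, or SRFHKO with PE replicate 1 or 2, took Postn out of the calls (largest adjusted p 0.163 by limma), whereas Col8a1 lost its call, among these omissions, only without SRFHKO with PE replicate 2 (largest adjusted p 0.0667 by limma).

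TGF-beta ligands rose beside the matrix genes. Tgfb2, a ligand of the TGF-beta receptors, stood at 6.57, 6.94 and 6.92 without PE and at 7.98, 8.55 and 8.04 with it, so that the groups were over 1 unit apart. The rise was 1.38 ± 0.26 (2.61-fold, limma adjusted p = 0.0254). Tgfb3 was at 6.97, 7.06 and 6.89 and then 7.92, 7.96 and 7.54, a rise of 0.84 ± 0.16 (limma adjusted p = 0.0254). The receptor gene Tgfbr1 differed by 0.48 ± 0.12 (limma adjusted p = 0.104) and Ccn2, connective tissue growth factor, by 1.19 ± 0.31 (limma adjusted p = 0.111). Ccn2 values of 10.51, 11.45 and 10.23 without PE and 11.54, 12.41 and 11.82 with it did not overlap, but the second heart of each group stood above its fellows. Bambi, a decoy receptor that lacks the kinase domain and dampens TGF-beta signalling, rose by 0.78 ± 0.16 (limma adjusted p = 0.0464); it lay outside the naming rule. Over the list, 18 of 27 measured genes were higher, 2 were called and the median was 0.23.

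Rcan1 and a set of genes for growth signalling and the cytoskeleton made up most of the other rises. Rcan1 binds and restrains calcineurin and is itself a target of calcineurin and NFAT. It was at 9.32, 9.78 and 9.27 without PE and at 10.26, 11.82 and 11.16 with it. The hearts with PE were all higher but spread over more than 1 unit, and the rise was 1.63 ± 0.28 (3.09-fold, limma adjusted p = 0.0167). A second Rcan1 probe set gave 1.68 ± 0.29. Of the 21 calcineurin and NFAT genes measured, Rcan1 was the 1 called, 13 were higher and the median was 0.11.

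Bcr, a protein that turns off Rac GTPases, went from 5.90, 6.88 and 6.14 to 7.32, 9.03 and 7.53, with the second heart highest in both groups. It rose by 1.65 ± 0.32 (limma adjusted p = 0.0260), but other Bcr probe sets gave 0.39 ± 0.22 and 1.43 ± 0.57, so its probe sets disagree in size. Flnc, filamin C, which ties actin to the Z-disc, was at 8.41, 8.11 and 8.09 and then 8.79, 10.22 and 9.20. Its rise of 1.19 ± 0.25 was close to the threshold (limma adjusted p = 0.0484) and was 0.79 without SRFHKO with PE replicate 2 (limma adjusted p = 0.196). Uck2, a kinase that salvages uridine and cytidine, went from 6.70, 6.42 and 6.44 to 7.42, 8.15 and 7.61, a rise of 1.21 ± 0.20 (limma adjusted p = 0.0167). Its probe sets disagree in size too: a nearly equally bright one gave 0.46 ± 0.18, and the others 0.39 ± 0.29 to 1.58 ± 0.47. Bcl2, the founding inhibitor of apoptosis, stood at 6.56, 6.60 and 6.86 and then at 7.90, 7.63 and 7.50, a rise of 0.998 ± 0.17 (limma adjusted p = 0.0167). It was the 1 gene called of 24 apoptosis regulators measured, of which 14 were higher.

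The remaining called rises lay outside the naming rule, except Prkab2 and Pfkp, and are given after their values were seen. They were smaller than 1 on the log2 scale. Shb, an adaptor of receptor tyrosine kinases, rose by 0.97 ± 0.17 and Sox4, a transcription factor of development, by 0.96 ± 0.18. Sox4 stood at 9.54, 9.65 and 9.33 without and at 10.79, 10.24 and 10.37 with PE. Rras2, a small GTPase of the Ras family, rose by 0.83 ± 0.17, Rtn4, which shapes the endoplasmic reticulum, by 0.78 ± 0.12, Akap2, an anchor of protein kinase A, by 0.45 ± 0.09, and 1700025G04Rik by 0.53 ± 0.10. Pfkp, the platelet form of phosphofructokinase in glycolysis, went from 8.42, 8.09 and 8.40 to 9.04, 9.10 and 8.85, a rise of 0.70 ± 0.12 (limma adjusted p = 0.0219), while its dimmer probe sets gave 0.15 ± 0.29 and 0.06 ± 0.30. It was the 1 called of 25 glycolysis genes measured, of which 13 were higher and 12 lower. Prkab2, the beta-2 regulatory subunit of the energy sensor AMPK, stood at 7.71, 7.33 and 7.54 and then at 8.28, 8.36 and 8.14, a rise of 0.73 ± 0.12 (limma adjusted p = 0.0167).

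**Figure D2:**
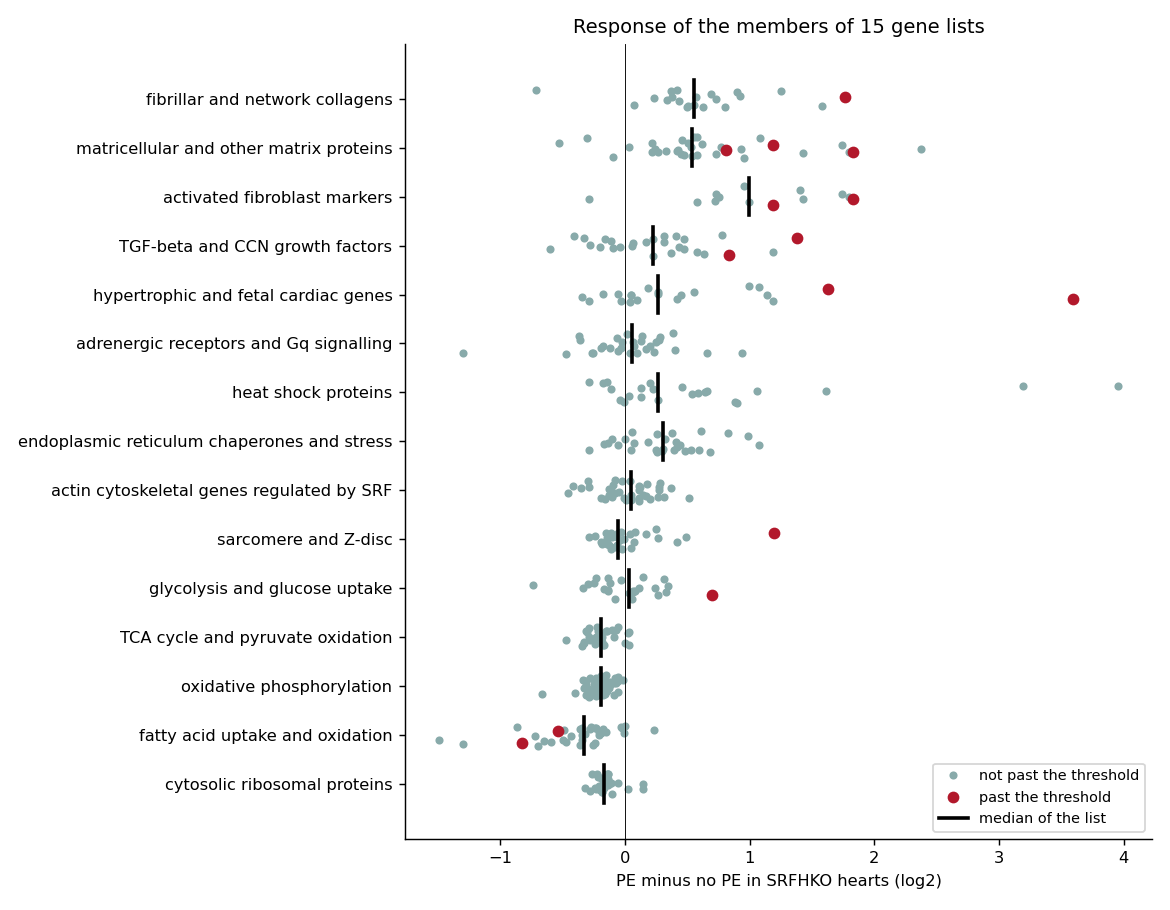
PE difference in SRFHKO hearts (x axis, log2, PE minus no PE) of each measured gene in 15 gene lists, with each list's median as a bar and called genes marked. Collagen, matricellular and activated fibroblast genes lay mostly above 0 (medians 0.56, 0.54 and 0.996) and fatty acid oxidation genes mostly below it (median -0.33), and these directions were the same under both other scalings.

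Genes of fatty acid oxidation and mitochondrial fuel use were prominent among the falls and were lower as lists. Eci1, an isomerase that prepares unsaturated fatty acids for beta-oxidation, was at 11.75, 11.48 and 11.62 without PE and at 10.93, 10.48 and 10.97 with it. The groups did not overlap, and the difference was -0.83 ± 0.15 (limma adjusted p = 0.0238). Decr1, a reductase in the same branch of oxidation, went from 11.20, 11.07 and 11.02 to 10.43, 10.58 and 10.68, a difference of -0.53 ± 0.11 (limma adjusted p = 0.0399). Ech1, a dienoyl-CoA isomerase outside the list and the naming rule, was at 12.91, 12.65 and 12.73 and then at 12.20, 12.20 and 12.41 (-0.49 ± 0.10, limma adjusted p = 0.0484). Of 36 genes of fatty acid uptake and oxidation measured, 34 were lower and 2 were called, with a median of -0.33 and 23 at an unadjusted p under 0.05. With quantile scaling 34 and with array-median scaling 31 were lower. In the single hearts with PE the list's median stood -0.28, -0.40 and -0.27 from the untreated mean. Etfb, an electron carrier from fatty acid oxidation to the respiratory chain, just missed the threshold (-0.47 ± 0.10, limma adjusted p = 0.0566).

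The respiratory chain and TCA cycle genes differed less per gene. All 66 oxidative phosphorylation genes measured were lower with PE, with a median of -0.19 and 28 at an unadjusted p under 0.05, and 0 passed the adjusted threshold in limma. Under quantile scaling 55 were lower (median -0.07) and under array-median scaling 62 (median -0.13), so part of this shift moves with the scaling. Ndufb10, a complex I subunit, was the member of smallest p, at -0.34 ± 0.09 (limma adjusted p = 0.142). Of 29 TCA cycle and pyruvate oxidation genes, 25 were lower (26 and 24 under the other scalings), with a median of -0.19 and 0 called, 13 at an unadjusted p under 0.05. Cardiomyocyte markers were lower beside them, 18 of 20 with a median of -0.14, but 10 of 20 under quantile and 15 of 20 under array-median scaling. What part the balance of cell types has in these lists was not tested.

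Other metabolic enzymes fell singly. Fbp2, the fructose bisphosphatase of muscle, had the largest fall: it was at 7.48, 7.27 and 6.73 without and 5.84, 5.48 and 5.59 with PE. The groups were well apart, with a difference of -1.52 ± 0.28 (2.88-fold lower, limma adjusted p = 0.0246). Gpat3, an acyltransferase that begins triglyceride synthesis, went from 7.96, 8.21 and 7.93 to 7.33, 7.03 and 6.90 (-0.95 ± 0.17, limma adjusted p = 0.0235). Dhrs7c, a short-chain dehydrogenase of the sarcoplasmic reticulum, was at 10.77, 10.85 and 10.94 and then at 10.28, 9.85 and 9.15, where the 3 hearts with PE spread over more than 1 unit (-1.09 ± 0.18, limma adjusted p = 0.0167). Dhrs11, another dehydrogenase of that family, stood at 8.70, 8.62 and 8.49 and then at 7.95, 7.49 and 7.89 (-0.83 ± 0.15, limma adjusted p = 0.0219). Gstk1, a mitochondrial and peroxisomal glutathione transferase outside the naming rule, differed by -0.56 ± 0.09 (limma adjusted p = 0.0167).

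The falls also took in single genes of signalling, each the only call in its list, and some genes in none of the lists. Agtr1a, the type 1a receptor of angiotensin II, was at 9.44, 9.47 and 9.25 without PE and at 8.89, 8.18 and 8.56 with it. No heart with PE reached the untreated range, and the difference was -0.84 ± 0.16 (limma adjusted p = 0.0310). It was the 1 called of 15 angiotensin and endothelin genes measured, of which 7 were higher and 8 lower, and Ace, the converting enzyme, lay on the other side (1.08 ± 0.23, limma adjusted p = 0.0566). Dusp1, the phosphatase that switches off p38 and JNK, stood at 10.64, 10.47 and 10.63 without PE and at 9.64, 9.77 and 10.03 with it (-0.77 ± 0.13, limma adjusted p = 0.0186). With PE it was near the 10.06, 10.07 and 9.76 of untreated control hearts. It is an immediate early gene, and of 28 such genes measured 14 were higher and 14 lower, with Dusp1 the 1 called. Of 28 phosphatases of its family and MAP kinases, 17 were higher, and Dusp10 differed by 0.66 ± 0.20 (limma adjusted p = 0.184). Lgi1, a secreted leucine-rich protein known from neurons, went from 5.29, 5.75 and 5.61 to 4.51, 4.20 and 3.63, near the filter limit of 3.58 (-1.44 ± 0.27, limma adjusted p = 0.0254). Ccrl2, a receptor that binds chemerin, Rmdn1, a microtubule-associated protein, and Art3, an ADP-ribosyltransferase relative, differed by -0.67 ± 0.14, -0.58 ± 0.11 and -0.49 ± 0.10, Art3 being outside the naming rule.

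The adrenergic and Gq genes themselves showed no called change. Of 30 measured (41 in the list), 17 were higher and 13 lower with a median of 0.05, 4 and 2 of them at an unadjusted p under 0.05. Adra1b, an alpha-1 receptor, was low on the array (4.49 to 5.80 in the 6 hearts) and differed by -0.36 ± 0.30 (limma adjusted p = 0.727). Adra1a had no probe set assigned to it alone and was not read. Rgs2, which shortens Gq signals, had the smallest p of the list: it was at 9.37, 9.81 and 9.95 without and at 8.69, 7.90 and 8.65 with PE, groups that did not overlap (-1.30 ± 0.30, limma adjusted p = 0.0705). Grk5, a kinase that desensitises adrenergic receptors, differed by 0.66 ± 0.20 (limma adjusted p = 0.188).

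The classical hypertrophic markers gave a mixed picture in SRFHKO hearts. Nppb, which encodes brain natriuretic peptide, was at 11.42, 11.58 and 11.52 without PE and at 12.52, 12.70 and 12.54 with it. All 3 hearts with PE stood about 1 unit above all without, and the difference of 1.08 ± 0.28 did not pass the threshold in the fit over all groups (limma adjusted p = 0.113). That fit pools the spread of all groups: the SD of Nppb was 0.08 without and 0.10 with PE, but 0.80 in SRFHKO hearts of day 8. Over the alternatives the limma adjusted p of Nppb ran from 0.00073, when only these 6 arrays were fitted, to 0.405. Nppb was called in 3 of 17. Nppa, atrial natriuretic peptide, differed by 0.19 ± 0.16 (limma adjusted p = 0.746). Myh7, the slow beta myosin heavy chain, was at 12.40, 12.66 and 12.30 without and 12.31, 12.62 and 12.33 with PE, with the same range in both (-0.03 ± 0.38, limma adjusted p = 0.990, and 0.08 under quantile scaling). Acta1, skeletal alpha-actin, differed by 0.27 ± 0.36, Ankrd1, a stretch-responsive repeat protein, by 0.09 ± 0.19, and Nmrk2, a nicotinamide riboside kinase of muscle, by 0.54 ± 0.36, none called. Enah, an actin-filament regulator, differed by 0.55 ± 0.14 (limma adjusted p = 0.105). Over the list of 21 measured hypertrophic and fetal genes, 16 were higher with a median of 0.27 and 2 were called, Rcan1 and Sprr1a. That median was 0.38, 0.31 and -0.01 in the single hearts with PE. It was 0.08 without SRFHKO with PE replicate 1, 0.54 without replicate 3, 0.40 without SRFHKO replicate 2 and 0.16 without SRFHKO replicate 3.

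Known SRF targets showed no common shift. Of 39 actin cytoskeletal genes regulated by SRF, 22 were higher and 17 lower with a median of 0.05, 0 called by limma and 2 each way at an unadjusted p under 0.05. The smallest p belonged to Myocd, myocardin, a coactivator of SRF (-0.46 ± 0.18, limma adjusted p = 0.325), and to Filip1l (0.51 ± 0.20, limma adjusted p = 0.331). Acta2, smooth muscle actin, differed by -0.29 ± 0.20 and Actc1, cardiac actin, by -0.13 ± 0.11 (0.00 under quantile scaling). Of 30 sarcomere and Z-disc genes 20 were lower (median -0.06), but 10 were lower under quantile and 14 under array-median scaling, and Flnc was the 1 called.

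Stress and interferon genes varied widely between hearts of 1 group. Hspa1b, an inducible heat shock protein, was at 6.08, 6.67 and 6.95 without PE and at 6.62, 12.85 and 12.09 with it. The first heart with PE stood among the untreated hearts and the other two more than 5 units above, so the difference of 3.96 ± 1.02 was not called (limma adjusted p = 0.110). The heat shock list shows the same order, with medians of -0.06, 0.73 and 0.34 in the 3 hearts with PE. It had 17 of 23 genes higher, 10 at an unadjusted p under 0.05, and 0 called by limma. Hsp90aa1, a cytosolic chaperone, stood at 10.43, 10.57 and 10.74 and then at 10.94, 12.05 and 11.45 (0.90 ± 0.21, limma adjusted p = 0.0708). Chaperones of the endoplasmic reticulum were higher in 24 of 29 genes (23 and 25 under the other scalings), with a median of 0.31 and 0 called, 7 at an unadjusted p under 0.05. Interferon genes were lower in 22 of 31 (median -0.22), but the untreated hearts alone spanned -0.92, -0.03 and 0.998 around their mean, against -0.36, -0.24 and -0.39 with PE. Without SRFHKO replicate 1 that median was -0.71, and without replicate 3 it was 0.16. Ribosomal protein genes were lower in 28 of 31 (25 and 27 under the other scalings), by a median of -0.16, with 0 called and 8 at an unadjusted p under 0.05.

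**Figure D3:**
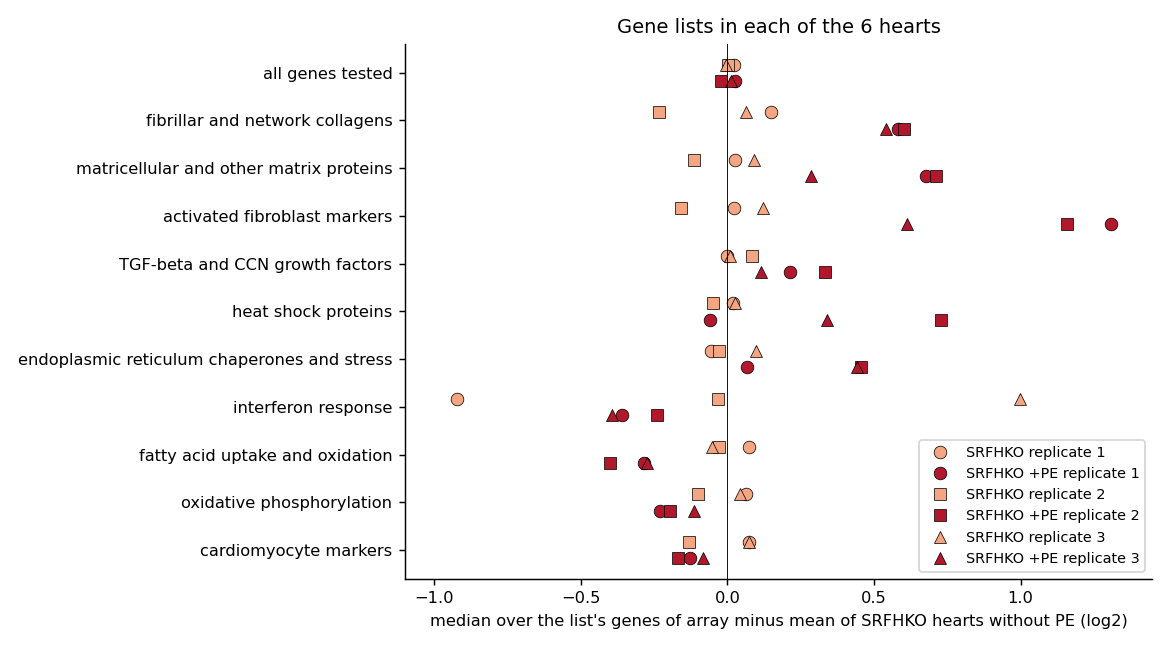
Median over each of 11 gene lists of the log2 level in a heart minus the mean of the SRFHKO hearts without PE (x axis, log2), with 1 symbol per replicate. Collagen genes were at 0.54 to 0.60 in all 3 hearts with PE, heat shock genes at -0.06, 0.73 and 0.34, and interferon genes at -0.92 to 0.998 in untreated hearts.

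Set beside control hearts, most of the 37 genes moved the same way, and a few did not. In controls 34 of the 37 differed in the same direction. The share of all genes that did so was not counted, so the 34 has no background to be read against. Of the 34, 21 had an unadjusted p under 0.05 in controls, against 1328 of all genes in either direction (10.5%). The 2 p values of a gene share 1 pooled error, so genes of small error are favoured in both. The 21 therefore cannot be read against that share. Among the 34, 1 was called in controls (1700025G04Rik, 0.59 ± 0.10, limma adjusted p = 0.0459). PE called 4 genes in control hearts, all higher (0.0317%): Myh7, Hsp90aa1, Enah and 1700025G04Rik. Postn differed by 1.42 ± 0.34 in controls (limma adjusted p = 0.191), Col8a1 by 1.29 ± 0.25 (limma adjusted p = 0.0676), and Thbs4 by 1.14 ± 0.21 (limma adjusted p = 0.0676). For these 3 the differences between the responses were 0.41 ± 0.48, 0.47 ± 0.35 and 0.05 ± 0.30. The other called matrix genes differed less in controls, Bgn by 0.18 ± 0.16, Crispld2 by -0.04 ± 0.13 and Col4a5 by 0.18 ± 0.12. Their differences between the responses were 0.63 ± 0.23, 0.72 ± 0.19 and 0.40 ± 0.17, none past the threshold (limma adjusted p = 0.580, 0.425 and 0.595). Over the lists, the collagen median was 0.13 in controls against 0.56, the activated fibroblast median 0.91 against 0.996, and the fatty acid oxidation median -0.22 against -0.33; these list differences were not tested. Across 12610 genes the 2 responses had a Pearson r of 0.154 and a Spearman rho of 0.142, across genes that are not independent of each other.

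The test of the difference itself called 3 genes (0.0238%), and 948 had an unadjusted p under 0.05 (7.52%). Of the 37, 19 were among the latter and 2 among the former. The 37 were chosen by their SRFHKO response, which is itself a term of this difference. Their share therefore cannot be read against that of all genes. Sprr1a was at 4.82, 4.75 and 5.57 in untreated and at 5.16, 4.94 and 5.48 in PE-treated controls, overlapping ranges with a difference of 0.15 ± 0.36. Its response was larger in SRFHKO hearts by 3.45 ± 0.51 (limma adjusted p = 0.0271). Prkab2 went the other way in controls, from 8.13, 8.32 and 8.30 to 8.00, 7.99 and 7.74 (-0.34 ± 0.12, limma adjusted p = 0.315), and differed between the genotypes by 1.07 ± 0.17 (limma adjusted p = 0.0278). Its PE-treated level in SRFHKO hearts was thus near that of untreated controls. Myh7 was at 9.14, 9.41 and 9.82 in untreated and 13.01, 12.55 and 12.74 in PE-treated controls, a rise of 3.31 ± 0.38 (limma adjusted p = 0.000758). Its response was lower in SRFHKO hearts (difference -3.34 ± 0.54, limma adjusted p = 0.0278), where untreated hearts were already above 12. Leaving out 1 heart at a time, the difference called 0 to 7 genes. Sprr1a lost its call (adjusted p up to 0.0948 by limma) without SRFHKO replicate 1 or 2, SRFHKO with PE replicate 2, control replicate 2 or any control with PE. Its size stayed between 3.15 and 3.96 in these omissions, and it also lost its call without the intensity trend (adjusted p = 0.128). Prkab2 lost its call in 9 of the 12 omissions and Myh7 in 10, with sizes of 0.973 to 1.16 and -3.52 to -3.18.

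Some differences short of the adjusted threshold had unlike signs in the genotypes. Itga9, an integrin subunit, was 0.78 ± 0.18 in SRFHKO and -0.45 ± 0.18 in control hearts, a difference of 1.23 ± 0.25 (limma adjusted p = 0.240). Socs2, a suppressor of cytokine signalling, was -0.53 ± 0.15 and 0.42 ± 0.15, a difference of -0.95 ± 0.21 (limma adjusted p = 0.375). For Nppb the responses were 1.08 and 0.78 (difference 0.30 ± 0.40, limma adjusted p = 0.898), and for Rcan1 1.63 and 0.91 (difference 0.71 ± 0.39, limma adjusted p = 0.713).

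**Figure D4:**
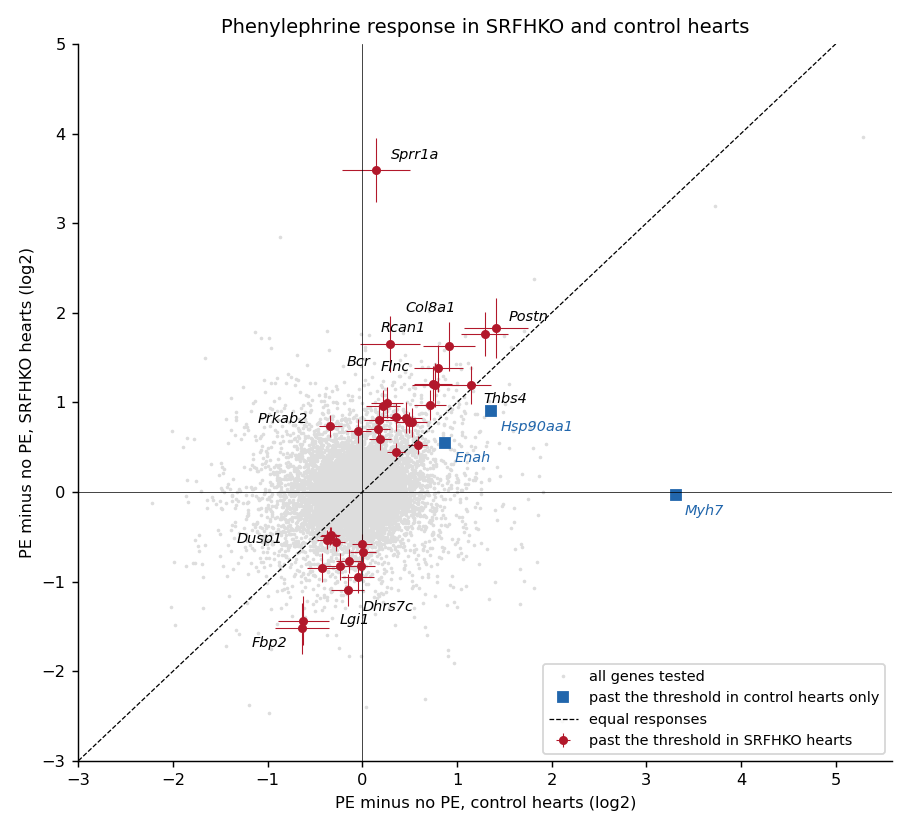
PE difference of each gene in control (x axis) and SRFHKO hearts (y axis), both log2, with the 37 genes called in SRFHKO hearts in red with SE bars and 3 called in control hearts alone as blue squares. Sprr1a lay at 3.59 against 0.15 and Myh7 at -0.03 against 3.31 (0.08 in SRFHKO hearts under quantile scaling), far from the dashed line of equal responses.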

How the data were processed

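Expression was measured on Affymetrix arrays in 18 mouse hearts. The deposited values are linear-scale intensity readings of 45101 probe sets per array. Per the submitters' processing notes they came from the software GCOS, of which the sources used here give no version, algorithm or scaling target. Arrays were brought to 1 trimmed mean (2% trim, 90.6), 2 was added and log2 taken, which understates changes of dim genes. Left out were 64 control probe sets and those with a mean below the 40th percentile (log2 3.58). Gene symbols are those of the platform annotation, renewed by gene ID from RefSeq (34945 probe sets had 1 symbol, 932 several, 9160 none). Each gene was read from its brightest probe set, with sets whose names end in _x_at used only where there was no other. This gave 12610 genes.

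limma 3.58.1 in R 4.3.3 fitted 1 mean per group over the 18 arrays, with empirical Bayes moderation, an intensity trend and two-sided p values adjusted by Benjamini-Hochberg. The steps were tested on simulated data. Named by rule were the 10 largest rises and 10 largest falls past the threshold without overlap, genes called for the difference, 21 core genes and up to 4 members per list by smallest p (markers: highest level). The gene lists, 34 of pathways and 17 of cell types, and the comparison itself were chosen with earlier results of these data known. The number of arrays limits the precision. Alternatives were other scalings, pseudocounts, filters, samples in the fit, array weights, a replicate block, all probe sets and leaving out each heart.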

Additional observations from a re-analysis of the deposited data

Results flagged for a closer look

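For 3 genes the response to PE differed between SRFHKO and control hearts by the test of the difference itself (limma over 12610 genes). Sprr1a had the larger response in SRFHKO hearts, by 3.45 on the log2 scale (SE 0.51, adjusted p = 0.0271), with all 3 SRFHKO hearts with PE above all other hearts of day 25. Prkab2, the beta-2 subunit of AMPK, differed by 1.07 (SE 0.17, adjusted p = 0.0278), with all 3 SRFHKO hearts above their untreated group and all 3 control hearts below theirs. Myh7, the slow myosin heavy chain, had a response lower by -3.34 in SRFHKO hearts (SE 0.54, adjusted p = 0.0278). No group here has more than 3 hearts at day 25, so single hearts were not tested for standing apart.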

How the results depend on the processing

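The 37 genes called in SRFHKO hearts became 22 with scaling to the array median, 2 when only the compared groups were fitted (Sprr1a and Nppb), 1 without the intensity trend, 110 with array weights (all 37 among them), and 1 to 83 when a heart was left out. Shared with the 37 were 25 of the 83 and 25 of the 31 called without SRFHKO with PE replicate 1 and 3. The settings for quantile scaling, pseudocount, filter, day 25 arrays only and all probe sets gave between 25 and 50 genes. The 4 genes called in control hearts became 2 with quantile scaling, 9 with array-median scaling, 7 with day 25 arrays only, 10 with the compared groups only, 1 without the trend, 7 with all probe sets and 1 to 7 without a heart. The 3 genes of the difference became 0 without the trend (926 at an unadjusted p under 0.05, limma), 1 with all probe sets and 0 to 7 without a heart (746 to 1111 at an unadjusted p under 0.05). The cause of these changes was not tested.

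Of 695 alternatives for called genes, 333 lost the call and 0 changed sign. Sprr1a kept its call in 17 of 17, Col8a1 in 14 and Rcan1, Uck2, Dhrs7c and Rtn4 in 12. For the difference, Sprr1a kept it in 13 of 22, Prkab2 in 9 and Myh7 in 9, and all 3 lost it without the intensity trend (adjusted p = 0.128, 0.128 and 0.237). Signs changed for genes near 0 that were not called: Myh7 (0.0804 with quantile and 0.029 with array-median scaling, -0.132 to 0.0717 without a heart), Myh6 (0.0142) and Actc1 (0.000907) with quantile scaling, Srf (0.0396 with array-median scaling, -0.152 to 0.0857 without a heart) and Ckm (-0.255 to 0.340 without a heart). Nppb was called in 3 of 17. Of 863 alternatives for list medians, 69 moved by more than the spread between hearts with PE. Array-median scaling moved the median of all genes to 0.05 for SRFHKO hearts. For controls it went from -0.03 to 0.12.

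Replicate numbers are shared between the groups. Same-numbered deviations correlated at 0.0431, 0.0300 and -0.0405 between the SRFHKO groups, and at 0.0336, 0.0649 and 0.0899 between the control groups. Deviations of unlike number correlated at -0.0843 to 0.0617 between the SRFHKO groups and at -0.0648 to 0.01 between the control groups. Before scaling, replicate 2 was the brightest and replicate 3 the dimmest array in each group of day 25. Whether hearts of the same number share a step of handling was not tested. With the replicate number as a block on day 25 arrays, 21 genes were called, 16 of them among the 37, and the difference between the responses lost the calls of Sprr1a (adjusted p = 0.130, limma) and Prkab2 (adjusted p = 0.210), while Myh7 kept it. With 3 hearts a group, an exact permutation test of 1 gene cannot go below p = 0.1, and dim genes are read least precisely.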
